A study of Mus musculus with 22 samples.

Results

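The regions described here are the G-quadruplex (G4) sites of mouse embryonic stem cells that were detected in all 4 G4 libraries and lay in accessible chromatin in all 4 ATAC-seq libraries. They were chosen by their own readout: of the 140119 G4 peaks of scramble KD replicate 1, a member had to overlap, by at least 1 bp, a peak in each of the 3 other G4 lists and a peak in each of the 4 ATAC-seq lists. This left 2624 members, or 1.87% of the list, of which 2622 lay on chromosomes and 2 on unplaced scaffolds. A total of 46238 peaks (33.0%) were present in all 4 G4 lists, and 38761 of these (83.8%) overlapped no ATAC-seq peak in any library. The smallest overlap of a member with any of the lists was 1 bp, at 1 member, and the median was 356 bp. Just outside the rule, 8728 peaks missed exactly 1 of the 7 lists, 7523 of them a G4 list and 1205 an ATAC-seq list, and 169 of these had a peak of the missing list within 100 bp. Of the 7523, 7200 (95.7%) missed the list of TERRA KD replicate 2, so that this library set the number of members more than any other. The 38761 constant peaks without ATAC-seq are called constant G4 peaks in closed chromatin and serve as the comparison. The G4 and ATAC-seq values of the members are therefore a description of how they were selected and carry no test, whereas ATRX and H3K9me3 took no part in the selection.

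The cells were female embryonic stem cells from a CAST/Ei x 129/Sv/Jae cross, grown in serum with LIF. All of them were transfected with a locked nucleic acid (LNA) antisense oligonucleotide for 12 h, either against TERRA (TERRA KD) or of scrambled sequence (scramble KD), so that the scramble cells also carried an oligonucleotide. Each condition had 2 replicates of ATRX, H3K9me3 and G4 ChIP-seq and of ATAC-seq. No untransfected cells entered the comparison, and 1 oligonucleotide treatment stands for TERRA depletion. The ATRX and H3K9me3 libraries of the same condition and replicate number shared 1 input, and both G4 replicates of a condition shared another. The study calls its ATRX and G4 replicates biological, and the labels do not say how separate the cultures were. With 2 libraries against 2 the exact permutation test cannot give a two-sided p below 0.333.

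G-quadruplexes are 4-stranded structures that DNA with closely spaced runs of guanine can fold into, and the antibody BG4 used for the G4 libraries binds the folded form. They are known from promoters, telomeres and other guanine-rich DNA, and nucleosome-free DNA is where they have mostly been mapped in cells. TERRA is the telomeric repeat RNA transcribed from chromosome ends, whose own sequence can form a G4. ATRX is a SWI/SNF-type chromatin remodeler that binds G4-forming and repetitive DNA and, with its partner DAXX, deposits histone H3.3 there. H3K9me3, trimethylation of lysine 9 of histone H3, marks silenced heterochromatin, including many retrotransposons in embryonic stem cells.

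The members fell into 3 classes by position and sequence. A total of 620 members (23.6%) had their centre within 1 kb of a transcription start site (TSS). A further 988 distal members carried the same short sequences over and over, and could be placed in 3 groups of 502, 314 and 172 members by the 20-base words they shared. The remaining 1014 members were distal and had no such sequence in common. The shared sequence of each group is shown first because it identifies what 988 of these sites are. Each line gives the most frequent 30-base word that holds a guanine run, in the orientation that points towards a downstream open reading frame, from one example locus in GRCm38, and capitals mark runs of at least 3 guanines:
Group 1, chr1:85340230-85340259, minus strand: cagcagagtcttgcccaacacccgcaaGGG
Group 2, chr14:3116129-3116158, minus strand: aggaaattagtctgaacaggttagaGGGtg
Group 3, chr6:60879747-60879776, minus strand: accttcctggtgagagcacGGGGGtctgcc

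The group 1 word was found in 406 of 502 members (80.9%), the group 2 word in 171 of 314 (54.5%) and the group 3 word in 88 of 172 (51.2%). The 20-base words used to find the groups recurred within a site at a regular distance. In group 1 the word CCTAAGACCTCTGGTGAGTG was present in 480 members, 331 of them with 2 or more copies and up to 6, at a median spacing of 208 bp. The group 2 word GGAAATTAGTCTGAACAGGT was present in 297 members, up to 7 copies in a site, at a median spacing of 214 bp. The group 3 word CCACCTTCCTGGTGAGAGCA was present in 142 members, up to 8 copies in a site, at a median spacing of 206 bp. An open reading frame of at least 1000 codons began or ran within 9 kb of 246 of the 502 group 1 members (49.0%), 143 of the 314 group 2 members (45.5%) and 54 of the 172 group 3 members (31.4%). Among the 1014 distal members outside the groups, 16 (1.58%) had one. Where a group member held both the word and the reading frame, the reading frame lay on the strand on which the word is printed in 237 of 239, 136 of 137 and 50 of 52 cases. Tandem repeats of about this length in front of a long reading frame are the layout of the promoters of mouse LINE-1 (L1) retrotransposons, which are built from repeated monomers and drive the element's own reverse transcriptase. No repeat annotation was used here, so the groups are called L1-type from this layout alone. In the reference sequence, 984 of the 988 group members (99.6%) were marked as repeats over more than 50% of their window, against 2.90% of the members at TSSs and 21.2% of the other distal members.

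The guanine-rich sequences of other sites took a different form. They are shown here for members that come up below, each on the strand that holds the motif, with the guanine runs of the first match in capitals:
Sycp1, chr3:102935869-102935920, minus strand: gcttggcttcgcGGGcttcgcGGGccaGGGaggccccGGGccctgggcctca
Mir760, chr3:122308293-122308341, plus strand: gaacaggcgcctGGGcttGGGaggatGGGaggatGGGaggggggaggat
Rny3, chr6:47749850-47749892, minus strand: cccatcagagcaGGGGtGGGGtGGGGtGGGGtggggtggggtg
Gm33933, chr14:6546745-6546787, plus strand: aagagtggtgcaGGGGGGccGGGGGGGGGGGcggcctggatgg
5S rRNA genes, chr8:123550956-123550998, minus strand: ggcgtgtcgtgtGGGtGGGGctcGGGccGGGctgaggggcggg
5S rRNA genes, chr8:123558052-123558094, minus strand: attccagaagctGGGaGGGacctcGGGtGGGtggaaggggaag

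The names are those of the nearest TSS, and the sequence lies outside untranslated regions. The first 5S sequence was present letter for letter in 4 members of that array, also at chr8:123574686-123574728, chr8:123544162-123544204 and chr8:123579739-123579781. The 5S, Sycp1 and Mir760 sequences have the 4 closely spaced runs of the textbook G4 motif, while the Rny3 sequence continues as a tandem repeat of the same unit.

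Motif content separated the classes. The G4 motif was searched as 4 runs of at least 3 guanines with loops of 1 to 7 bases, on both strands, in the 300 bp around the G4 summit. Loop bases could be guanines too, so a long run can count as several, as in the Gm33933 sequence above. The motif was present in 587 of the 2622 members on chromosomes (22.4%), against 29.3% of constant G4 peaks in closed chromatin, 28.8% of all G4 peaks of the list and 5.03% of all 300-bp stretches of the chromosomes. Members at TSSs held it in 266 of 620 cases (42.9%), against 337 of 919 closed constant peaks at TSSs (36.7%). Other distal members held it in 316 of 1014 cases (31.2%). Of the 988 L1-type members only 5 (0.506%) held it. Loops of up to 12 bases raised the share in the L1-type groups to 32.3%, nearly all from group 1. There 309 of 502 members (61.6%) then matched, against 2 of 314 in group 2 and 8 of 172 in group 3. Over all members these loops gave 44.7%, above the 38.4% of closed constant peaks and the 36.2% of all G4 peaks. The order of members and closed peaks thus depended on the loop rule. Most L1-type members, all chosen for a peak in each of the 4 G4 lists, thus lacked the textbook motif in the window. For comparison, the motif was found in 18.6% of the 300-bp promoter sequences of RefSeq genes.

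Other short sequences followed the classes as well, each searched on both strands. At least 8 copies of TG in a row were present in 4.81% of members and in 26.9% of constant G4 peaks in closed chromatin. At least 2 copies of TTAGGG, the telomere repeat that TERRA is transcribed from, were present in 1 member. GGGCGG, the core of the box bound by Sp1-type factors, was present in 60.2% of members at TSSs against 35.7% of all RefSeq promoters and 26.1% of the closed constant peaks at TSSs. CCAAT, the core of the box bound by NF-Y, was present in 477 of 502 group 1 members (95.0%), in 1.59% of group 2 and in 4.65% of group 3, against 40.8% of all 300-bp stretches, 37.4% of RefSeq promoters and 32.5% of all G4 peaks. Over all members it was present in 29.6%. AAGATGGCG, the core of the sequence bound by YY1, was present in 67.2% of group 2, 65.7% of group 3 and none of group 1, against 0.302% of all 300-bp stretches. These are matches of letters and no measure of the factors' binding.

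**Figure D1:**
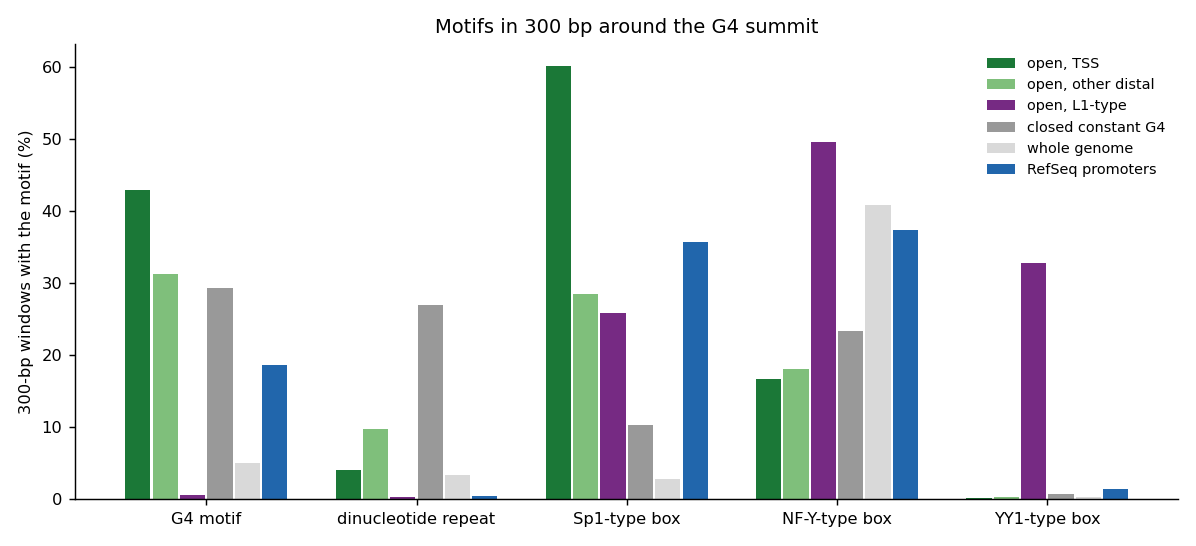
Percentage of 300-bp windows that hold each motif (vertical axis, percent) in the 3 classes of members, in constant G4 peaks in closed chromatin, in all stretches of the genome and in RefSeq promoters; each bar is a set. The G4 motif reaches 42.9% at TSSs and 0.506% in the L1-type groups, and the dinucleotide repeat, at least 8 copies of TG, is most frequent in the closed peaks, at 26.9%.

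The median −log10 p of the members lay above that of the whole list in every G4 and ATAC-seq list, and these values describe the selection. Whole G4 lists had 3.92 and 4.47 in scramble KD versus 4.31 and 3.34 in TERRA KD, and members 5.06, 11.9, 7.75 and 3.42. Their median G4 fold over input was 13.6 and 7.02 in scramble KD versus 8.67 and 4.32 in TERRA KD, against 10.8, 6.13, 8.27 and 5.37 for the whole lists in the same order. In the shallowest library, scramble KD replicate 1, a member rested on a median of 8 tags, and in scramble KD replicate 2 on 58. The median ATAC-seq fold was 5.44 and 7.05 in scramble KD versus 6.56 and 7.23 in TERRA KD, above the 4.90, 4.92, 4.80 and 4.73 of the whole lists. The −log10 p, fold and tags follow depth and input, and differences in them between libraries were not tested.

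The base composition of the members was high in G and C. The median GC content of the window was 63.3% in members (quartiles 60.7% and 66.3%) and 53.7% in closed constant peaks, and the median number of CpG dinucleotides was 16 and 5. A window with GC above 50% and an observed to expected CpG ratio above 0.6 was called CpG-island-like. This held for 439 of 620 members at TSSs (70.8%), 35.9% of L1-type members and 20.9% of other distal members, against 9.47% of the closed constant peaks at TSSs. The part of base composition in the selection was not tested.

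Relative to genes, 1175 members (44.8%) were intergenic, 590 (22.5%) lay in introns, 191 (7.28%) in coding exons and 43 (1.64%) in exonic untranslated regions, beside the 620 at TSSs. In all, 1593 (60.7%) were more than 10 kb from any TSS and 565 (21.5%) more than 100 kb, against 75.2% and 26.3% of all G4 peaks of the list and 75.7% and 19.3% of closed constant peaks. TSS overlap was 23.6% in members, 2.37% in closed constant peaks and 7.61% in all G4 peaks of the list, a difference that the choice on ATAC-seq can itself produce, since promoters are often accessible. L1-type members were 77.1% intergenic, with a median distance of 95366 bp to the nearest TSS, against 40.7% and 17600 bp for the other distal members. Chromosome 6 held 9.26% of members and 7.42% of all G4 peaks, chromosome 9 held 2.86% and 4.56%, and chromosome X held 4.84% and 4.57%. Of the 127 members on X, 82 were L1-type.

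At promoters most sites had their centre just inside the gene. The centre lay at or downstream of the TSS in 470 of 620 members (75.8%) and upstream in 150, with a median of 167 bp downstream (quartiles 6 and 394 bp). Closed constant peaks at TSSs also lay more often on this side, in 551 of 919 cases (60.0%), with a median of 115 bp downstream. The motif was on the coding strand only in 140 members, on the template strand only in 103 and on both in 23. In 64 members TSSs on opposite strands lay within 1 kb.

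**Figure D2:**
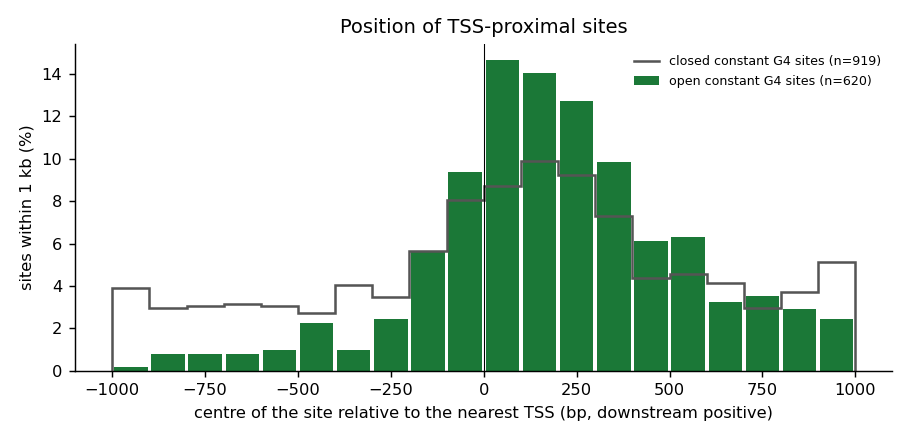
Percentage of the 620 members at TSSs (bars) and of the 919 closed constant G4 peaks at TSSs (line) in each 100-bp bin of the distance from the nearest TSS to the centre of the site (horizontal axis, bp, positive is downstream in the direction of transcription). The fullest bin of the members runs from 0 to 100 bp, with 91 sites, and the bin that starts 1000 bp upstream holds 1.

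A total of 675 of 26180 curated genes (2.58%) had a member within 1 kb of a TSS. None of the 29 core pluripotency genes had one, nor did any of 26 genes with classic promoter G-quadruplexes, 30 G4 helicases and binders, 25 genes of ATRX-DAXX and H3K9 methylation or 83 cytosolic ribosomal proteins. Against 2.58% of all genes, a count of 0 in lists of this size lies near the background. A peak near the TSS in all 4 ATAC-seq lists was present at 28 of the 29 pluripotency genes, 21 of the 26 genes with classic promoter G-quadruplexes, 30 of the 30 G4 helicases and binders, 24 of the 25 genes of ATRX-DAXX and H3K9 methylation and 79 of the 83 ribosomal protein genes, against 15369 of all 26180 genes. A peak in all 4 G4 lists was present at 1, 5, 1, 0 and 0 of them in the same order, against 2878 of all genes. Peaks in all 8 lists were present near the TSS of 1, 3, 1, 0 and 0 genes of these lists, which had no member, against 1604 of all genes. Peaks of the G4 list of TERRA KD replicate 2 were present at 10.3% of the pluripotency genes, 3.61% of the ribosomal protein genes and 24.2% of all genes, against 48.3%, 30.1% and 42.7% in scramble KD replicate 1. Among 35 germline genes that embryonic stem cells keep silent, Sycp1 had a member. Among 13 genes drawn as example tracks for these libraries, Ltbr had one. The study draws Ltbr as an example of reduced G4 in the first exon and intron after TERRA knockdown. A peak in every list does not show that the signal was unchanged.

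Sycp1, which encodes a core protein of the meiotic synaptonemal complex, had its member at chr3:102934862-102936336, 501 bp downstream of the TSS. Its G4 fold over input, as MACS gives it, was 29.8 and 4.98 in scramble KD versus 10.7 and 4.42 in TERRA KD, and its ATAC-seq fold was 5.42, 6.89, 5.13 and 6.15 in the same order. No ATRX peak overlapped it, and H3K9me3 peaks did so in replicate 1 of scramble KD and of TERRA KD, at a fold of 33.8 and 19.6. Ltbr, the lymphotoxin beta receptor, had its member at chr6:125313453-125314247, 35 bp downstream of the TSS, with G4 folds of 21.8 and 6.58 in scramble KD versus 7.14 and 2.57 in TERRA KD. Neither ATRX nor H3K9me3 peaks overlapped the Ltbr member in any library. The G4 folds of the conditions overlapped at both genes.

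The best-supported promoter members, ranked after their values were seen by the poorest rank over the 4 G4 lists, were at H2-Q6, Zfp853, Adad2, Cpne6 and Tnni2. H2-Q6 encodes a non-classical class I molecule of the major histocompatibility complex, and Tnni2 the fast skeletal muscle form of troponin I. At H2-Q6, chr17:35424472-35426275, the G4 fold was 18.6 and 10.6 in scramble KD versus 9.22 and 4.73 in TERRA KD. At Tnni2, chr7:142440709-142442461, it was 16.3 and 8.81 in scramble KD versus 8.99 and 4.25 in TERRA KD. Fold over input is not comparable between libraries that differ in depth and input, and the G4 libraries held between 2961038 and 24588605 tags.

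More than 10 kb from any TSS, the members with the best poorest G4 rank included a site near Gm10406, an intronic site in Itpr2 and a site near Mir760, whose sequence was shown above. Itpr2 encodes an inositol trisphosphate receptor, a calcium channel of the endoplasmic reticulum. At the Itpr2 site, chr6:146401661-146403322, the G4 fold was 38.0 and 14.2 in scramble KD versus 20.5 and 9.87 in TERRA KD, without an ATRX peak in any library. At the site near Mir760, a microRNA gene, chr3:122307435-122309010, it was 24.8 and 32.4 in scramble KD versus 20.4 and 16.1 in TERRA KD. ATRX overlapped this site in scramble KD replicate 2, at a fold of 8.10, and in both TERRA KD libraries, at 19.4 and 9.91. The motif was present at the Mir760 site and absent from the windows of the others.

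Gene bodies rarely held several members. Outside chromosome 18, which was left out of this count, 1369 genes had at least 1 member in the body or the 1 kb before it. Of these, 128 had 2 or more, and none had 5. Cntnap4, a neurexin-family cell adhesion protein, Osbp2, an oxysterol-binding protein, and Shank3, a scaffold of the postsynaptic density, had 4 each. Atp2b2, a plasma membrane calcium pump, and Crocc, a component of the ciliary rootlet, had 3 each. The list was cut at 5 genes with ties in alphabetical order, so other genes may also have 3. The bodies of the 5 genes ran from 44 kb in Crocc to 313 kb in Cntnap4. Of the 4 members in Cntnap4, 2 were L1-type, and those in the other 4 genes were not.

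ATRX was found at few members in scramble KD and at more in TERRA KD. In scramble KD 35 and 20 of the 2624 members overlapped an ATRX peak (1.33% and 0.762%), and in TERRA KD 365 and 307 did (13.9% and 11.7%). Both TERRA KD libraries thus lay above both scramble KD libraries. The difference of means was 11.8 percentage points (exact permutation test, two-sided p = 0.333, the smallest this design allows). The lists themselves grew: ATRX had 7321 and 13652 peaks in scramble KD versus 41384 and 21718 in TERRA KD. Relative to list size, 0.492% and 0.146% of scramble KD peaks and 0.904% and 1.54% of TERRA KD peaks lay on members, a log2 ratio of 2.14 (exact permutation p = 0.333). Both differences fell when weak peaks were left out by their −log10 p. With only peaks of a −log10 p of at least 5, the difference at members was 2.10 points and the log2 ratio was -0.09 (exact permutation p = 1). When the longer list was cut to the size of the shorter, by rank, the difference was 6.04 points and the log2 ratio 2.78. With 50% of the G4 peak covered they were 7.49 points and 2.21. Among 249 members with a −log10 p of at least 5 in all 8 lists that chose them, they were 23.7 points and 1.72. The log2 ratio was 0.88 without replicate 2 and 3.4 without replicate 1.

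The share of members with ATRX exceeded that of closed constant peaks in every library, and that of all G4 peaks in 3 of the 4. In closed peaks it was 0.415% and 0.547% in scramble KD versus 3.51% and 2.72% in TERRA KD. In all G4 peaks of the list it was 0.5% and 0.922% in scramble KD versus 3.60% and 2.63% in TERRA KD, so that members lay below it in scramble KD replicate 2. Members minus closed peaks averaged 5.13 percentage points over the 4 libraries (exact sign-flip permutation test, p = 0.125, the smallest that 4 libraries allow). The rise from scramble KD to TERRA KD was 9.13 points larger in members (exact permutation p = 0.333). The average was 1.33 points with only peaks of −log10 p of at least 5 and 13.1 points among the 249 members that pass this value in all 8 lists. Members were selected to be accessible, and they were higher in GC and longer than closed peaks, at a median of 731 against 598 bp. With fixed 500-bp windows in place of the called peaks, members minus closed peaks averaged 4.50 points. The part of accessibility, GC or length in the shares was not tested.

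All classes of members shared the rise. At TSSs the ATRX share was 0.806% and 0.161% in scramble KD versus 8.55% and 8.06% in TERRA KD. In the L1-type groups together it was 0.506% and 0.709%, then 17.8% and 12.3%. Group 3 had the highest share in both TERRA KD libraries, 39.5% and 16.3%, and its replicates lay far apart. Group 1 reached 13.1% and 11.6% and group 2 reached 13.4% and 11.5%. Other distal members had 2.37% and 1.18% in scramble KD versus 13.3% and 13.3% in TERRA KD. The shares with and without the G4 motif lay close together, without a test. At TSSs it was 9.40% and 8.27% in TERRA KD with the motif and 7.91% and 7.91% without, and at other distal members 13.0% and 11.4% with it and 13.5% and 14.2% without.

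**Figure D3:**
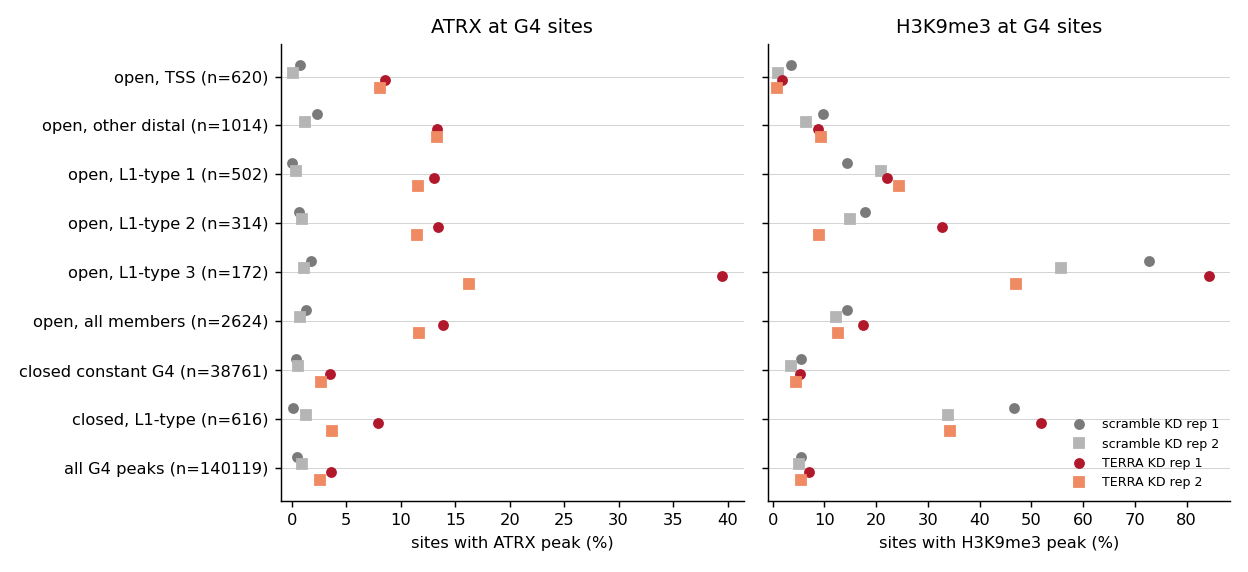
Percentage of sites that overlap an ATRX peak (left) or an H3K9me3 peak (right) in each library (horizontal axes, percent), for members, their classes, constant G4 peaks in closed chromatin and all G4 peaks of the list. Each point is a library: ATRX overlaps 13.9% and 11.7% of members in TERRA KD and at most 1.33% in scramble KD, while the H3K9me3 points of the conditions overlap.

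The number of sequence copies at an L1-type site went with ATRX in TERRA KD and with ATAC-seq across the whole genome, but not with H3K9me3 in a common direction. The 20-base words were located on all chromosomes, which gave 4779, 3690 and 1277 loci of 1 kb for groups 1, 2 and 3, of which 10.1%, 8.02% and 11.1% held a member. In group 1, ATRX peaks in TERRA KD were present at 3.35% and 2.44% of loci with 1 copy, 7.68% and 4.98% with 2 or 3 copies, and 20.1% and 10.2% with 4 or more. In group 3 the same shares were 11.7% and 4.85%, 26.7% and 8.68%, and 38.8% and 8.26%, so that replicate 2 did not rise further beyond 3 copies. In group 2 they were 5.06% and 2.89%, 9.07% and 3.90%, and 15.2% and 5.70%. In scramble KD no class of loci passed 1.42%. H3K9me3 peaks in group 1 went from 17.0% and 16.5% of loci with 1 copy to 7.01% and 10.4% with 4 or more in scramble KD, and from 20.8% and 20% to 14.8% and 14.0% in TERRA KD, lower in all 4 libraries. In group 3 the H3K9me3 libraries went different ways, from 53.6% and 40.4% to 41.3% and 43.0% in scramble KD and from 64.6% and 43.2% to 81.8% and 8.26% in TERRA KD. In group 2 they went from 9.59%, 11.2%, 23.2% and 11.4% to 8.98%, 3.45%, 24.4% and 1.38% in the same order. ATAC-seq peaks were present at 98.1% or more of the loci with 4 or more copies in every library and at 17.3% to 33.7% of group 1 loci with 1 copy. The G4 peaks of TERRA KD replicate 2 fell with copy number, from 47.3% to 29.4% in group 1, 32.6% to 12.1% in group 2 and 58.0% to 9.92% in group 3, where the 3 other G4 lists were higher at 4 or more copies than at 1. Copies of such an element are nearly identical, and a read that maps to many places is given 1 of them by the aligner's default, so a single locus carries less certainty than the group. More copies also mean more repeat sequence in the 1 kb, and the part of this in the trend was not tested.

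**Figure D4:**
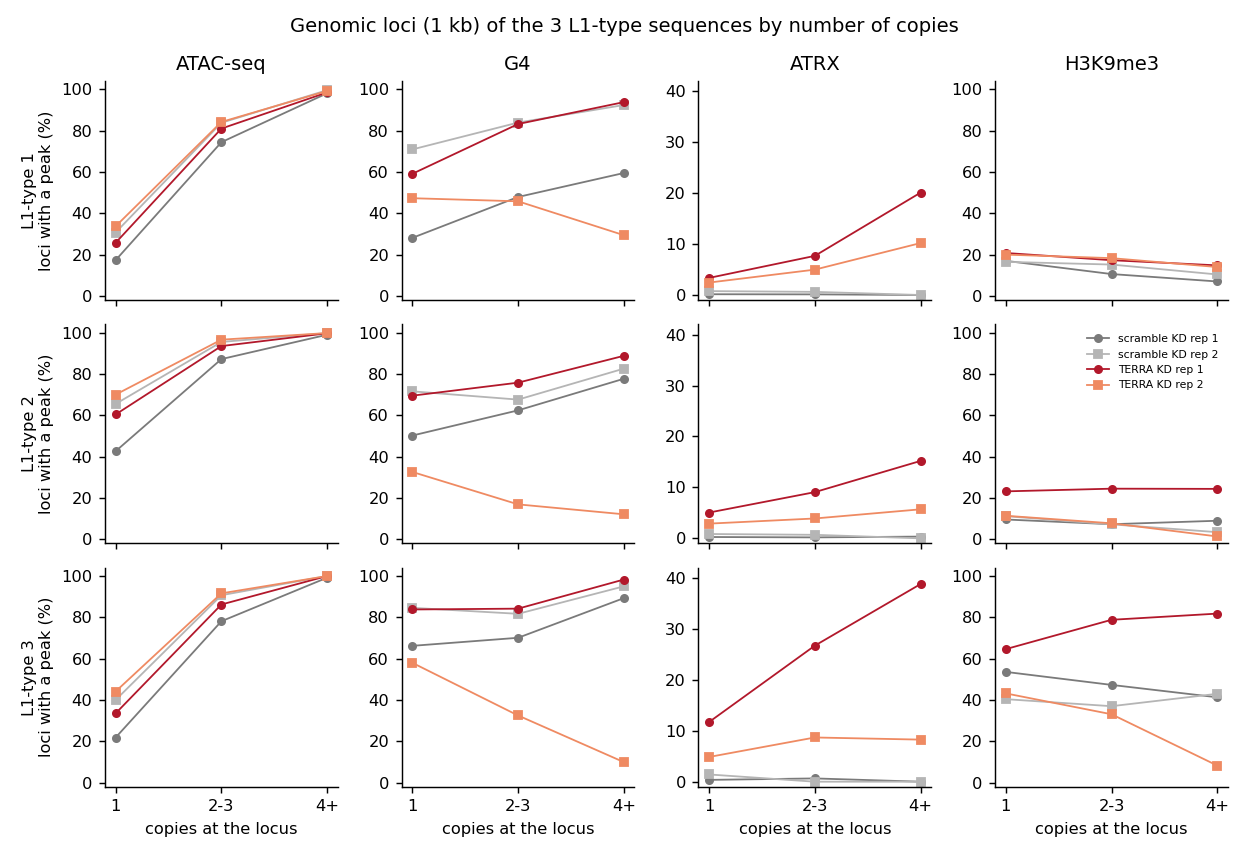
Percentage of 1-kb genomic loci of each L1-type sequence that overlap a peak (vertical axes, percent, with a smaller range for ATRX) by number of copies of the 20-base word (horizontal axis), with a line for each library of each assay. In TERRA KD replicate 1, ATRX rises from 3.35% to 20.1% of group 1 loci, and G4 in TERRA KD replicate 2 falls with copy number in all 3 groups.

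A total of 73 members (2.78%) had an ATRX peak in both TERRA KD libraries and in neither scramble KD library, against 0.362% of all G4 peaks of the list. The reverse pattern was present at 0 members and at 0.00714% of all G4 peaks. Of the 73 members, 31 (42.5%) were L1-type and 14 (19.2%) lay at TSSs. Chosen by the poorer rank of the ATRX peaks, the strongest was a 7596-bp member at chr6:47747526-47755121, at -30301 bp from the TSS of Rny3, a small Y RNA gene. It was one of the sites shown above, and its ATRX fold was 7.84 and 4.66 in TERRA KD. The second lay in a coding exon of Mid1, an X-linked ubiquitin ligase gene that spans the pseudoautosomal boundary in mouse, at chrX:169926992-169927454, with ATRX folds of 7.81 and 4.75. The third, chr10:58231522-58234119, was also the member whose poorest rank over the 4 G4 lists was the best, with G4 folds of 26.0 and 10.7 in scramble KD versus 10.9 and 5.17 in TERRA KD. Its ATRX fold was 7.34 and 5.34 in TERRA KD. The member near Gm33933, chr14:6546119-6547102, whose guanine runs were shown above, had ATRX folds of 19.1 and 7.33 in TERRA KD. A member at chr14:19415176-19419846 held 4943 and 5079 ATRX tags in TERRA KD at a fold of 2.3 and 2.34. Its window had 35.3% GC, against a lower quartile of 60.7% over the members, and it also held 6770 and 6797 G4 tags in scramble KD versus 7166 and 6431 in TERRA KD.

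Of these 73, the 5S ribosomal RNA gene array on chromosome 8 gave several. The array encodes the small RNA of the large ribosomal subunit, and all 25 annotated n-R5s genes lie at chr8:123538784-123622046. There were 8 members over chr8:123537223-123587059, all with the G4 motif, and 11 of the 25 genes lay inside a member. ATRX peaks overlapped 0 and 1 of the 8 in scramble KD versus 8 and 7 in TERRA KD. The counts of the conditions did not overlap here, and the array is a tandem repeat whose members share peaks, so the 8 are not independent. The fold at the member nearest to n-R5s121 was 8.57 and 7.81 in TERRA KD, and at the one nearest to n-R5s104 it was 10.2 and 7.1. H3K9me3 peaks overlapped 1 and 2 of the 8 in scramble KD versus 5 and 2 in TERRA KD, without separation of the conditions.

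The 14 members at TSSs with this pattern, listed after their values were seen, comprised 5 in the 5S array and 9 at single genes. Fam131b had ATRX folds of 15.8 and 4.26 in TERRA KD, Dmrtc1c1 14.3 and 4.35, and Gm13272 19.1 and 6.39. Pdgfra, the receptor for platelet-derived growth factor A, had 10.9 and 4.26, with a −log10 p of 2.96 and 2.22. Scnn1a, a subunit of the epithelial sodium channel, had 8.57 and 4.57. Dusp26, a dual-specificity phosphatase, had 7.45 and 4.60. H2-Q7, a class I molecule next to H2-Q6, had 8.40 and 2.90. St8sia1, a ganglioside sialyltransferase, had 7.14 and 5.68, and the odorant receptor gene Olfr373 had 5.01 and 4.83. All 9 had a −log10 p of at most 5.21 in either library, near the threshold of the lists, and no H3K9me3 peak overlapped any of them.

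**Figure D5:**
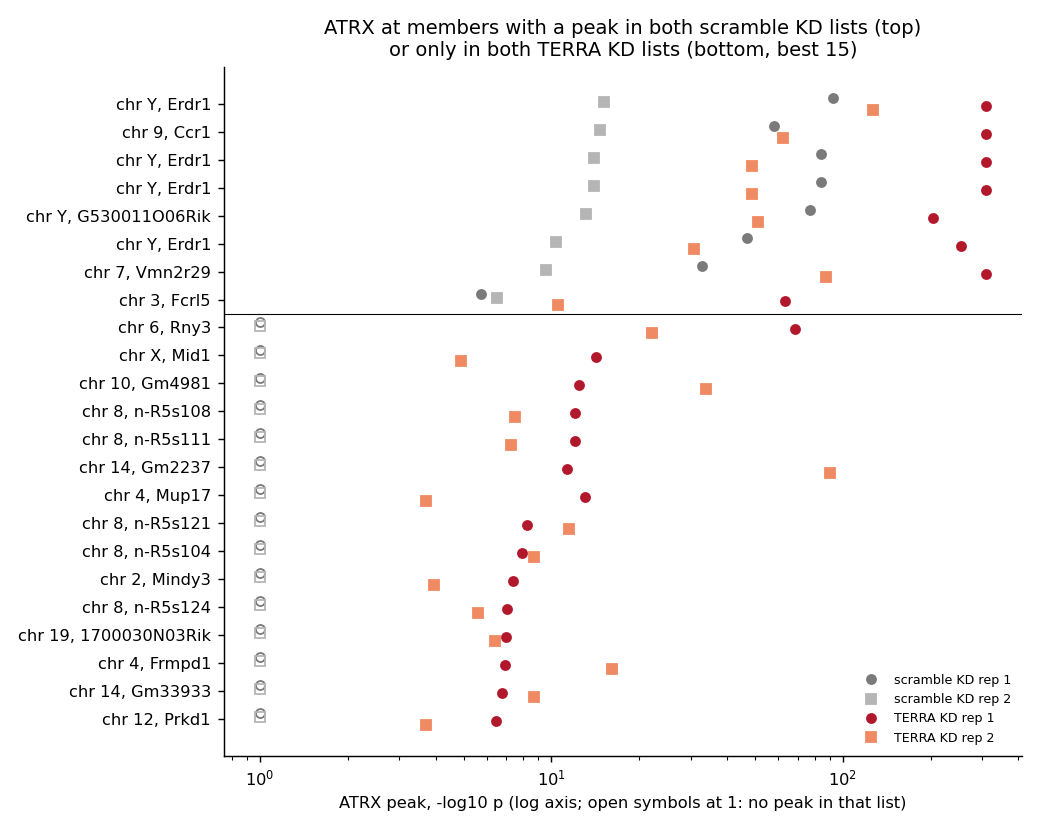
ATRX peak −log10 p (horizontal axis, log scale) in each library at the 8 members with a peak in both scramble KD lists (above the line) and at 15 members with a peak only in both TERRA KD lists (below it), named by chromosome and nearest TSS. Each symbol is a library, and an open symbol at 1 stands for no overlapping peak. The 8 upper members have a higher value in TERRA KD than in scramble KD within each replicate number. The −log10 p follows depth and input, and this difference was not tested. A pair of the upper members near Erdr1 shares the same ATRX peak in each library.

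ATRX was present in both scramble KD libraries at 8 members (0.305%, against 0.0942% of all G4 peaks), and all 8 also had a peak in both TERRA KD libraries (all 4 lists, 0.0756% of all G4 peaks). Of these, 5 lay at the end of chromosome Y near Erdr1 and G530011O06Rik, and the others near Ccr1, at Vmn2r29 and near Fcrl5. At Vmn2r29, a vomeronasal receptor gene, chr7:7277042-7278547, the ATRX fold was 44.6 and 6.99 in scramble KD versus 207 and 39.8 in TERRA KD. Near Ccr1, a chemokine receptor gene, chr9:123924324-123926175, it was 30.7 and 4.52 in scramble KD versus 71.0 and 11.7 in TERRA KD. Near Fcrl5, chr3:87424950-87425435, it was 13.7 and 11.4 in scramble KD versus 184 and 14.9 in TERRA KD. Near G530011O06Rik, chrY:90741454-90742237, the fold of replicate 1 was lower in TERRA KD, with 203 and 8.75 in scramble KD versus 109 and 31.2 in TERRA KD. The folds of the conditions overlapped at 7 of the 8 members and did not overlap near Fcrl5. These folds follow depth and input, and differences in them were not tested.

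At the end of chromosome Y, 8 members spanned chrY:90718487-90827346. ATRX peaks overlapped 8 and 5 of them in scramble KD versus 8 and 8 in TERRA KD, and H3K9me3 peaks 8 and 6, then 8 and 7. In the member in an intron of Erdr1, chrY:90793115-90794824, the ATRX fold was 21.1 and 4.37 in scramble KD versus 44.8 and 16.7 in TERRA KD, and the conditions overlapped. The pair of members closest to the end shared the same ATRX peak in each library and are counted singly only because they are separate G4 peaks. The study describes the line as female, and this end of Y carries the pseudoautosomal region, whose sequence X shares. Whether a read came from X or Y cannot be told apart, and the members are named after the reference chromosome to which the peaks were assigned. Of all 14 members on Y, 5 were L1-type. Without chromosome Y the ATRX difference at members was 11.7 points.

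H3K9me3 was present at more members than ATRX and showed no separation of the conditions. Peaks overlapped 375 and 320 members in scramble KD (14.3% and 12.2%) versus 460 and 332 in TERRA KD (17.5% and 12.7%). The difference was 1.85 percentage points (exact permutation p = 0.667), and relative to list size the log2 ratio was 0.24 (exact permutation p = 0.667). The lists of replicate 1 held 26414 and 25490 long peaks, with median lengths of 2404 and 3119 bp, and those of replicate 2 held 76213 and 74925 short ones of 491 and 515 bp. Depth differed in the same way, with 12090614 and 13898785 tags in replicate 1 and 5942692 and 5435286 in replicate 2, and so did the inputs. Over the alternatives listed at the outset the difference at members ranged from 0.457 to 3.24 points. By class, an alternative chosen after seeing the data, it was -0.968 points at TSS members, 0.214 outside the L1-type groups and 4.55 within them.

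Members exceeded closed constant peaks in H3K9me3 in all 4 libraries. The closed peaks had 5.54% and 3.52% in scramble KD versus 5.29% and 4.55% in TERRA KD, a mean difference of 9.44 points (exact sign-flip permutation p = 0.125). With fixed 500-bp windows this difference was 8.41 points. Outside the L1-type groups, with the called peaks, it was 1.91 points (exact sign-flip permutation p = 0.125). The L1-type members had 25.6% and 25.1% in scramble KD versus 36.3% and 23.5% in TERRA KD. Group 3 stood highest at 72.7%, 55.8%, 84.3% and 47.1% in the same order, and group 1 had 14.3%, 20.9%, 22.1% and 24.5%. Members at TSSs had 3.55%, 0.968%, 1.77% and 0.806%, below closed peaks at TSSs in 3 of the 4 libraries. L1-type members had less H3K9me3 than closed constant peaks that carried the same sequences, by 14.0 points (exact sign-flip permutation p = 0.125), a comparison added after the data were seen. The closed peaks held more of group 3, 295 of 616 against 172 of 988, and within the groups the differences were -3.24, -4.75 and 3.70 points (exact p of 0.5, 0.125 and 0.375). Open and closed copies of the same sequence therefore did not differ in a common direction.

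H3K9me3 peaks were present in both scramble KD libraries at 176 members (6.71%, against 2.28% of all G4 peaks) and in all 4 lists at 95 members (3.62%, against 1.34%). They appeared in both TERRA KD libraries and neither scramble KD library at 22 members (0.838%, against 0.436%), and the reverse at 18 (0.686%, against 0.179%). Among the members with H3K9me3 in all 4 lists were sites near Mup17, 9430037G07Rik and Gm3411 and an intronic site near Sox5. The member near Mup17, a major urinary protein gene, at chr4:61570989-61572257, had H3K9me3 folds of 87.9 and 8.79 in scramble KD versus 66.1 and 11.5 in TERRA KD. That near 9430037G07Rik, chr9:88651745-88652698, belonged to group 3 and had 66.3 and 15.5, then 96.5 and 10.9. At both sites the values of the conditions overlapped.

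ATRX and H3K9me3 met at the same members. Within a condition and replicate number both were called against the same input, and the part of this in the overlap was not tested. Of the 73 members with ATRX in both TERRA KD libraries only, 49.3% and 43.8% overlapped an H3K9me3 peak in scramble KD versus 61.6% and 50.7% in TERRA KD. Among the 2551 others the shares were 13.3%, 11.3%, 16.3% and 11.6%. The mark was thus more frequent at these 73 in all 4 libraries, the scramble KD libraries included. The same held within the L1-type class, with 64.5%, 64.5%, 77.4% and 58.1% at 31 members against 24.3%, 23.8%, 35.0% and 22.4% at 957. It held among other distal members too, with 53.6%, 39.3%, 60.7% and 64.3% at 28 members against 8.42%, 5.58%, 7.20% and 7.81% at 986. At TSSs, 1, 1, 4 and 1 of the 14 overlapped H3K9me3, and these were all in the 5S array. Closed constant peaks with the same ATRX pattern had 46.2%, 39.3%, 52.4% and 58.6% in these libraries, so this pairing was not particular to the members.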

How the data were processed

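The authors deposited MACS peak lists, 1 per library, aligned to GRCm38 (mm10) with Bowtie2 version 2.3.4.1 per the labels, and called with MACS 1.4.3 (ATRX, H3K9me3), 1.4.2 (G4) and 2.2.7.1 (ATAC-seq) per the file headers, all at the permissive p of 0.01. Each deposited row holds a position, a tag count or pileup signal, a fold ratio over input or background and a −log10 p as a score; q-value and FDR columns were not used. Libraries held 2961038 to 24588605 tags (G4), 4104486 to 15506154 (ATRX), 5435286 to 13898785 (H3K9me3) and 5976014 to 7883648 (ATAC-seq), and the depth of a list limits which weak sites it holds. Inputs were used only through the authors' calls.

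Values of a member come from the best-ranked overlapping peak of each list. Overlaps of at least 1 bp were counted in Python 3.11.15 with numpy 2.4.6, pandas 2.3.3 and scipy 1.17.1, and tested on simulated data. RefSeq genes, promoters and sequence of GRCm38 were used, the same build. Shares of sites were compared between conditions by a two-sided exact permutation test over libraries, and between open and closed peaks by an exact sign-flip test. A group was seeded by a 20-base word shared by at least 30 members on chromosomes. A member joined the group if it shared at least 20 words with those present in at least 25% of the members holding the seed. The members and the gene lists were chosen with earlier results of these data known. Named members were the fixed-list genes with a member at the TSS, the best by worst G4 rank, the best by ATRX or H3K9me3 rank in the stated patterns, and the genes with most members; genes on chromosome 18 were left unnamed. Alternatives were peaks of −log10 p of at least 5, 50% coverage, 500-bp windows, equal numbers of peaks, stricter members, no Y, other TSS windows and motif rules, each replicate left out and a replicate block.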

Additional observations from a re-analysis of the deposited data

How the results depend on the processing

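With only ATRX and H3K9me3 peaks of −log10 p of at least 5, the share of the list on members turned over between conditions, to a log2 ratio of -0.0858 for ATRX and -0.0702 for H3K9me3. The cause was not tested. The number of members fell to 1291 with 50% of the peak covered and to 249 with −log10 p of at least 5 in all 8 lists, and was 11970 to 12931 when a replicate number was left out. The share at TSSs was 18.6% within 500 bp, 27.8% within 3 kb and 10.4% among the 249. The share with a G4 motif was 44.7% with loops of up to 12 bases, 35.1% over the whole peak and 24.7% among the 249. Closed constant peaks had 38.4% with these loops and 37.2% over the whole peak. Leaving out a replicate number gave ATRX differences at members of 10.9 to 12.6 points, log2 list ratios of 0.88 to 3.4, open minus closed shares of 4.60 to 5.66 and changes of 8.77 to 9.49, and for H3K9me3 0.457 to 3.24, 0.12 to 0.36, 8.39 to 10.5 and -0.564 to 3.49, so that without replicate 1 the H3K9me3 change in members no longer exceeded that in closed peaks. Of the alternatives listed at the outset, 68 kept their direction or, for counts and shares without a test, stayed near the main value. Another 10 moved and 3 reversed. For tested results only the sign was compared. No test could pass the threshold at this size, so the p-values say nothing of stability.

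In alternatives chosen after seeing the data, H3K9me3 at TSS members gave -0.968 points between conditions, a log2 list ratio of -0.46, -0.538 points against closed TSS peaks and a change of -1.35. The H3K9me3 change was -0.131 outside the L1-type groups, and its open minus closed share was -14.0 within them. The other 26 such values kept their direction.

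The labels name nothing that pairs same-numbered libraries of the conditions, though these were alike in depth of input (3366921 and 3374834 tags in replicate 1, 19735093 and 28622103 in replicate 2) and, for H3K9me3, in peak number and length. Over 46238 constant G4 peaks their deviations correlated at 0.00610 for ATRX and 0.205 for H3K9me3, over 2 pairs, too few to take as pairing. With the replicate block the ATRX difference at members was 11.8 points, its log2 list ratio 2.14 and its change against closed peaks 9.13 (exact sign-flip permutation p = 0.5 each, the smallest 2 pairs allow). For H3K9me3 the replicate block gave 1.85, 0.24 and 1.46 (exact p of 0.5, 0.5 and 1). No call changed, as none was made.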

Other observations

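A block of 10 members at chr6:114528152-114660381, from downstream of the TSS of Hrh1, the histamine H1 receptor gene, into an intron of Atg7, an autophagy gene, had no L1-type sequence. The last member, chr6:114659730-114660381, lay in Atg7 and the others were intergenic. Its first member, chr6:114528152-114530276, had G4 folds of 10.9 and 15.9 in scramble KD versus 9.98 and 5.58 in TERRA KD. ATRX peaks overlapped 8 of the 10 and H3K9me3 peaks 4, all in TERRA KD replicate 2 and none in the other 3 libraries of either assay. The ATRX fold there was 14.2 at the first member and 25.9 at chr6:114552845-114555044. These ATRX and H3K9me3 libraries shared an input. A block that stands out in 1 library of both assays was not compared further.

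The class I genes of the major histocompatibility complex, which encode antigen-presenting molecules, gave a second dense stretch. Over chr17:35195513-35461344 there were 9 members, 7 of them at TSSs, and those at H2-D1, H2-Q1, H2-Q2, H2-Q6 and H2-Q7 all held the G4 motif. ATRX peaks overlapped 0 of the 9 in each scramble KD library and 1 and 3 in TERRA KD. These genes are similar in sequence, and reads shared between them cannot be told apart.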
